A study of Mus musculus with 3 samples.

Results

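The genes described here are the ligands, the receptor and the binding proteins of the insulin-like growth factor (IGF) system together with the protease Pappa: Igf1, Igf2, Igf1r, Igfbp2, Igfbp3, Igfbp4, Igfbp5, Igfbp6, Igfbp7 and Pappa. They were chosen by name, with earlier results of these arrays known, and each was read from the probe set with 1 gene symbol and the highest mean log2 intensity. All 10 were measured, among 19938 genes in all, and each had a single such probe set, so the choice between probe sets did not arise. IGF ligands are secreted growth factors that act through the tyrosine kinase Igf1r. Binding proteins hold the ligands in the extracellular space and can either block or prolong their action, and proteases such as the metalloprotease encoded by Pappa cut binding proteins and free the ligand. In bone the ligands are known to be made by stromal and osteoblast lineage cells and to be stored in matrix.

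RNA came from stromal cells sorted from bone marrow of tibia, femur and pelvis of mice at baseline and was amplified and hybridised to 3 single-colour Affymetrix arrays. Of these, 2 hold CXCL12-abundant reticular (CAR) cells, perivascular reticular cells with a high level of the chemokine Cxcl12, from 2 CXCL12-GFP knock-in mice. The other array holds PDGFRa+ Sca+ CD45- lineage- cells (PaS), a gate for mesenchymal progenitors, combined from 3 Prx1-Cre Rosa26Ai9/+ Cxcl12gfp/+ mice. Both groups thus carry a GFP allele of Cxcl12, and only the PaS mice carry the Prx1-Cre driver, which is active in limb mesenchyme, and the Ai9 reporter. The labels name no age and no treatment. Cell type and genotype differ together, and the PaS group is 1 pool with no replicate. Values are deposited RMA intensities, and differences are on the log2 scale, CAR minus PaS. The SD is over the 2 CAR arrays, and the SE is limma's moderated standard error, whose spread comes from the CAR arrays alone. With 1 CAR array from each of 2 mice, that spread is the difference between a pair of mice.

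The labels were checked against defining markers before the genes were read. All 9 CAR stromal markers were higher on the CAR arrays, and their summed intensity was 6356 and 7435 there against 547 in the PaS pool. Of 8 measured markers of Sca-1+ fibroblast progenitors 5 were lower in CAR cells and 1, Pdgfra, was higher, at a log2 intensity of 7.52 and 7.97 against 4.33, although PDGFRa defines the PaS gate. Ly6a, which encodes Sca-1, was not analysed here. All 8 general blood cell markers were higher on the PaS array, with summed intensities of 241 and 266 in CAR cells against 1745. Ptprc, which encodes the CD45 that was gated out, stood at 5.11 and 5.01 against 8.27. The PaS array therefore goes against its label at Pdgfra and Ptprc, and it is called the array labelled PaS from here on. No result can be given without it, since it is the whole of its group. Fewer cells of a type and less RNA per cell cannot be told apart in such bulk samples.

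The IGF genes split into 3 kinds of pattern. Igfbp4, Igfbp3, Pappa, Igfbp5 and Igf1 stood higher on both CAR arrays than on the array labelled PaS, Igfbp6 stood lower on both, and Igf2, Igf1r, Igfbp2 and Igfbp7 differed by less than 2-fold on at least 1 CAR array. By size, 5 of the 10 genes were at least 2-fold higher on both CAR arrays and 1 was at least 2-fold lower, where 10.9% and 8.92% of all genes were. In limma's fit over all genes 6 of the 10 passed an adjusted p of 0.05, against 15.0% of all genes; 5 were higher (8.56% of all genes) and 1 lower (6.42%). The median difference was 1.17 over the 10 genes, −0.10 over all genes and 0.37 over the brighter genes, those at or above the median mean level. That mean is over 3 arrays, 2 of them CAR, so genes that are high in CAR cells pass it more readily. The 0.37 is therefore no neutral baseline. These counts describe genes that were picked with this contrast known and are no test of the family.

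**Figure D1:**
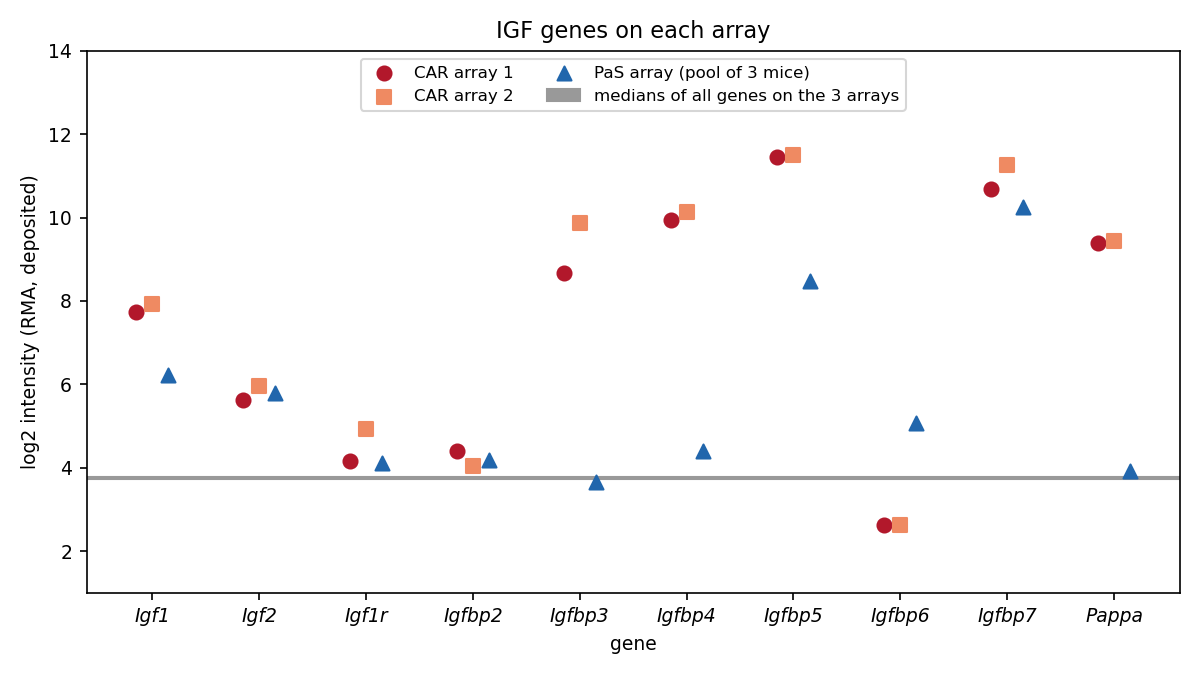
Log2 intensity of each of the 10 IGF genes (vertical axis) on CAR array 1 (circles), CAR array 2 (squares) and the array labelled PaS (triangles); the grey band marks the medians of all genes, 3.74 to 3.77. Igfbp3, Igfbp4 and Pappa lie far above the band on the CAR arrays and within 0.63 log2 units of their array's median on the array labelled PaS, and Igfbp6 lies under it on the CAR arrays alone. Levels of different genes come from different probes and are not compared.

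Of the ligands, Igf1 was the one with a difference. Igf1, the growth factor that carries much of the action of growth hormone, had intensities of 214 and 244 on the CAR arrays and 74.4 on the array labelled PaS. Both CAR arrays were high and lay close together, and the ratio of the means was 3.08-fold (log2 difference 1.62 ± 0.29, SE). After quantile normalization, which equalises the spread of the 3 arrays, it was 1.96-fold. Osteoblast markers went in both directions beside Igf1. Of 5, Ibsp, Sp7 and Alpl were at least 2-fold higher on both CAR arrays, Dmp1 differed by 0.21, and Col1a1 was lower on both. Col1a1 stood at a log2 intensity of 5.30 and 5.63 against 6.28. The summed intensity of the 5 was 2241 and 3306 against 241, of which Ibsp gave 2071, 3096 and 112. Igf1 is also made by macrophages. Of 10 macrophage and monocyte markers 5 passed limma's threshold as lower in CAR cells and none as higher. The summed intensity of the 10 was 537 and 498 on the CAR arrays and 2387 on the array labelled PaS. Most of the last sum, 1927, came from Lyz2. None of the 10 differences was positive. Adgre1 lay under the array median on all 3 arrays, at a log2 intensity of 2.61, 2.29 and 3.23, whereas C1qc stood at 4.20 and 4.05 against 6.95. The part of either cell type in the value of Igf1 was not tested.

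Igf2, the fetal growth ligand expressed from the paternal allele, had intensities of 49.4 and 62.1 in CAR cells and 55.4 on the array labelled PaS. The last value fell between the CAR arrays, so the groups overlapped, and the log2 difference was −0.0020 ± 0.31 (SE). After quantile normalization the difference of Igf2 was −0.60, or 1.52-fold lower in CAR cells. Igf1r, the receptor kinase for both ligands, had intensities of 17.9 and 30.6 in CAR cells against 17.4. CAR array 1 was next to the array labelled PaS and CAR array 2 was 1.76-fold above it, so the size rests on 1 array; the log2 difference was 0.43 ± 0.40 (SE).

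Among the 6 binding proteins, Igfbp4 and Igfbp3 had the widest separation. Igfbp4, which mostly restrains IGF action until it is cleaved, had intensities of 982 and 1115 in CAR cells and 21.2 on the array labelled PaS. The CAR arrays agreed within a log2 gap of 0.18, and the difference of 5.63 ± 0.29 (SE; 49.4-fold) was the fourth highest of all 19938 genes. Igfbp3, the main carrier of IGF in serum, had intensities of 410.1 and 939 in CAR cells and 12.6 on the array labelled PaS. Both CAR values were high but far from each other: CAR array 2 was 2.29-fold above CAR array 1, a gap of 1.20 that exceeds that of 98.2% of genes. The fold of Igfbp3 over the array labelled PaS was therefore 32.6 without CAR array 2 and 74.6 without CAR array 1, around a mean of 49.3 (log2 difference 5.62 ± 0.53, SE).

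Igfbp5, a binding protein of bone matrix with affinity for the cell surface and for extracellular matrix, had intensities of 2787 and 2916 in CAR cells and 359 on the array labelled PaS. Its level was high on every array, at or above the 99.4th percentile of genes, and the difference of 2.99 ± 0.28 (SE; 7.95-fold) does not rest on a dim value. After quantile normalization the fold of Igfbp5 was 5.62. Its neighbour Igfbp2, a binding protein with a preference for Igf2, behaved otherwise. Igfbp2 had intensities of 21.2 and 16.5 in CAR cells and 18.1 on the array labelled PaS, which lay between them, so the groups overlapped (log2 difference 0.05 ± 0.31, SE). Igfbp7, a relative with low affinity for IGF that is abundant in vessels and in stroma, had intensities of 1637 and 2471 in CAR cells and 1226 on the array labelled PaS. All 3 arrays were bright, and both CAR arrays were higher, by 1.34-fold and 2.02-fold. Its difference of 0.71 ± 0.36 (SE) was close to the log2 gap of 0.59 between the CAR arrays.

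Igfbp7 is also a gene of endothelial cells, and markers of those cells were read beside it. Of 10 endothelial markers 3 passed limma's threshold as lower in CAR cells and none as higher. The summed intensity of the 10 was 111 and 95.6 on the CAR arrays and 288 on the array labelled PaS. None of the 10 differences was positive. The endothelial cadherin Cdh5 stood at a log2 intensity of 2.91 and 3.18 against 6.28, and the 2 CAR values lie under the array medians. The part of endothelial cells in the Igfbp7 value on the array labelled PaS was not tested.

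Igfbp6 was the single gene of the family with a lower value on both CAR arrays that was at least 2-fold. Igfbp6, a binding protein with a strong preference for Igf2, had intensities of 6.19 and 6.21 in CAR cells and 33.8 on the array labelled PaS. The CAR arrays were almost identical, and the difference of −2.45 ± 0.28 (SE) amounts to 5.45-fold. Both CAR values lay below the median of all genes, near the 19.1th and 22.7th percentiles, where expression and background cannot be separated. With every value below its array's median raised to that median, the fold was 2.52. Igfbp6 went with 5 of 8 measured fibroblast markers that were at least 2-fold lower on both CAR arrays. Of these, Dpt and Thy1 stood at log2 intensities of 2.60 and 2.27 against 8.10 and of 3.56 and 3.69 against 7.67. Pdgfra, of the same list, went the other way, at 7.52 and 7.97 against 4.33. Igfbp6 also went with the blood cell markers, of which all 8 were lower in CAR cells. The part of either cell type in the Igfbp6 value was not tested.

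Pappa, the metalloprotease that cleaves Igfbp4 and other binding proteins, had intensities of 666 and 692 in CAR cells and 15.2 on the array labelled PaS. The CAR arrays differed by 0.06 on the log2 scale, and the difference between groups was 5.48 ± 0.28 (SE; 44.7-fold), the eighth highest of all genes. As deposited, Igfbp4, Igfbp3 and Pappa were thus among the 8 highest differences. Their ranks were 12, 4 and 14 after quantile normalization, and 4, 9 and 10 with 16 added to every intensity before log2. For these 3 genes the value on the array labelled PaS lay near the median of all genes (3.65 for Igfbp3, 4.40 for Igfbp4 and 3.93 for Pappa, median 3.77), so folds and ranks are uncertain. Adding 16, which damps dim values, gave 22.3-fold for Igfbp3, 28.6-fold for Igfbp4, 22.3-fold for Pappa and 2.24-fold for Igfbp6. No direction changed in these 4 genes under that setting.

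**Figure D2:**
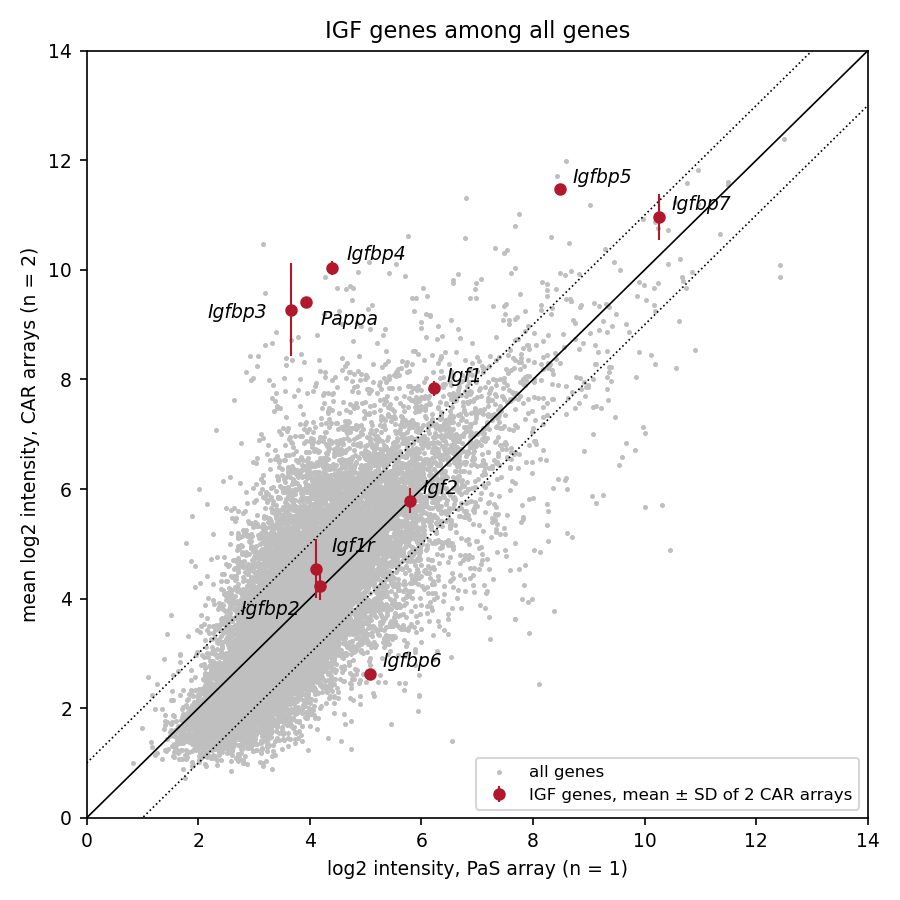
Mean log2 intensity on the 2 CAR arrays (vertical axis) against log2 intensity on the array labelled PaS (horizontal axis) for 19938 genes (grey) and the 10 IGF genes (red, bars are the SD of the CAR arrays); the solid line marks equality and the dotted lines 2-fold. Igfbp3, Igfbp4 and Pappa lie at the upper edge of the cloud, Igfbp5 is bright on both axes, and Igfbp6 lies below the lower dotted line.

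The genes with the most similar profile were found for the 2 extremes of the family, by Euclidean distance between profiles over the 3 arrays, each centred on its own mean. With 3 arrays a profile holds only 2 independent differences, so the distances describe size and replicate gap and no more. Nearest to Igfbp4 were Lepr, the leptin receptor (distance 0.09), Kng1, the kininogen gene (0.14), Pappa itself (0.15), Esm1 (0.22) and Vegfc (0.25). Lepr, the defining receptor of leptin receptor-positive stroma, stood at 9.92 and 10.19 against 4.35. Nearest to Igfbp6, which itself is below the median level that the compared genes had to reach, were Slpi, a leukocyte protease inhibitor (0.05), Clec4d, a myeloid lectin (0.06), Mki67, a proliferation gene (0.10), Samsn1, a lymphoid adaptor (0.11), and S100a9, a neutrophil protein (0.12).

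Promoter sequences were set beside these patterns for the 4 binding proteins with the clearest differences, because genes that move together can share promoter features. The sequences are from RefSeq on GRCm38.p6, run 5′ to 3′ on the gene's strand, and hold 250 bases before the annotated start and 50 from it onward. Capitals mark matches to the motifs named below. Igfbp3 lies at chr11:7213874-7214173 (minus strand), Igfbp4 at chr11:99040994-99041293 (plus), Igfbp5 at chr1:72874816-72875115 (minus) and Igfbp6 at chr15:102143936-102144235 (plus).
Igfbp3: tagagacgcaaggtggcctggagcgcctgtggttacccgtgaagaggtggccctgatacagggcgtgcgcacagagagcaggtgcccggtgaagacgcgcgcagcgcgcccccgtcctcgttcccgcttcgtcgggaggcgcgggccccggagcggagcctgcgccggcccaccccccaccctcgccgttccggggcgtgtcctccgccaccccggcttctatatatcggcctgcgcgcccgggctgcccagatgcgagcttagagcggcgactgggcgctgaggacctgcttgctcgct
Igfbp4: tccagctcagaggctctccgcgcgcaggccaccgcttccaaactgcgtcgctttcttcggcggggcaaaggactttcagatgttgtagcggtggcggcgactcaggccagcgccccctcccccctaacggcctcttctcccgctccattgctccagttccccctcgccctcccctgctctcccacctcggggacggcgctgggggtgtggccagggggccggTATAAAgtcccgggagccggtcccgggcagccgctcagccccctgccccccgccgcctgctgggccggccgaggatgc
Igfbp5: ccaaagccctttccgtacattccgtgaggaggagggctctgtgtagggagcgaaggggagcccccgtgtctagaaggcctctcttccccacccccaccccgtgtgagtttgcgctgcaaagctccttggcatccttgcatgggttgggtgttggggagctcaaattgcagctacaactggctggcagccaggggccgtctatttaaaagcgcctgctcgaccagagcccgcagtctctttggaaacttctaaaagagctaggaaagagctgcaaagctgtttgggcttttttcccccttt
Igfbp6: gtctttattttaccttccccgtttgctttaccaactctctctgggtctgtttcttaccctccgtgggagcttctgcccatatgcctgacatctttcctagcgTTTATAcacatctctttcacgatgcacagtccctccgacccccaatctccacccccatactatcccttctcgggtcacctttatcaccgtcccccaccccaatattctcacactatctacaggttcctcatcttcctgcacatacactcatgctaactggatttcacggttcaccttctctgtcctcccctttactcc

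The promoters of the 3 binding proteins that were higher in CAR cells differed in base composition. That of Igfbp3 held 37 CpG dinucleotides and 71.7% GC, that of Igfbp4 27 and 71.3%, and that of Igfbp5 10 and 56.3%, while Igfbp6 had 8 and 49.7%; the median of 32851 promoters was 7 CpG and 52.7% GC. The table held 13 promoters for 9 of the 10 genes, all but Pappa. Motifs were searched on both strands. The palindromic EBF motif (0.904% of all promoters), the forkhead motif TGTTTAC (3.65%), the C/EBP motif TTGCGCAA (0.183%), the STAT motif TTCNNNGAA (8.30%) and the cyclic AMP response element TGACGTCA (1.79%) had no match in any of the 13, which says only that these letters are not in these windows. The Sp1 motif GGGCGG, present in 35.7% of all promoters, was found in 5 of the 13, those of Igf1r and Igfbp7, 1 of Igfbp2 and 2 of Igf2. The TATA motif TATAAA (13.6% of all promoters) had 1 match in Igfbp4, starting at −28 from the start site, and 1 on the other strand in Igfbp6, at −148. A match is a description of the letters and not a site.

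The rest of the pathway was read from lists of ligands, proteases, partners and signalling genes, all tested in the fit over 19938 genes. Of 93 measured pathway genes outside the family 25 rose in CAR cells and 4 fell, or 26 and 13 after quantile normalization; of all genes 8.56% rose and 6.42% fell. The median difference was 0.47, against −0.10 over all genes and 0.37 over the brighter genes. With 16 added before log2, 0 of 19938 genes passed limma's adjusted p (lowest 0.0539, with 5785 genes at an unadjusted p under 0.05), so each pathway call below, and each call of a family or marker gene above, is lost in that setting. It returned in part when 73 genes with the same value on both CAR arrays were left out: 24 pathway genes and 5 of the 10 family genes then passed, without Igfbp3. Adding 16 also moved the fold of 9 of the 20 called genes named below by over 1.5 times, at most 2.07 times, and turned none of their directions. Those 9 values are given below, and Adam12 and Shc1 did not regain their call without the tied genes. Adam12, Gab1, Shc1, Grb14, Pth1r and Plagl1 lay under the median of all genes on the array labelled PaS, so their folds are ratios to values that may be background.

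Of 7 other receptors, ligands and carriers 1 rose and none fell. Igf2r, the receptor that takes up and degrades Igf2, had intensities of 64.2 and 69.6 in CAR cells against 20.7 (3.23-fold, log2 difference 1.69 ± 0.28; limma adjusted p = 0.0271). Insr, the insulin receptor, had intensities of 145 and 137 against 83.3, which missed the threshold (limma adjusted p = 0.125). Igfbp1, Igfals and Ins2 differed by 0.21 log2 units or less, none past the test, and all 3 lay under the array medians throughout. Insrr, a relative of the insulin receptor, was also under them and did not pass (−0.54 ± 0.28).

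Of 17 proteases that cut binding proteins and inhibitors of such proteases 3 rose and 1 fell, with a median difference of −0.18. Mmp14, a membrane metalloprotease, rose 8.16-fold (adjusted p = 0.0116), and Adam12, which cleaves Igfbp3 and Igfbp5, rose 7.64-fold (intensities of 128 and 83.8 against 13.5; adjusted p = 0.0167), or 4.05-fold with 16 added. Adam9 rose 2.84-fold (adjusted p = 0.0326). Mmp9, a gelatinase of neutrophils and osteoclasts, fell by 2.38 on the log2 scale (adjusted p = 0.0221). All 9 neutrophil markers were at least 2-fold lower on both CAR arrays, and 7 of them passed limma's threshold. The part of neutrophils in the value of Mmp9 was not tested. The closest relative of Pappa and the stanniocalcins that inhibit it showed no such pattern. Pappa2 had intensities of 10.2 and 10.1 against 11.5 (adjusted p = 0.684), Stc2 11.5 and 7.12 against 8.68 (adjusted p = 0.927), while Stc1 differed by −0.51 and −1.55 log2 units on CAR arrays 1 and 2 from its value of 11.7 (adjusted p = 0.197). All 3 lay under the array medians on every array, so no order can be read from them. Prg2, another gene of this list, was brighter, with intensities of 35.0 and 8.30 against 85.0. Its CAR arrays lay far apart, and it did not pass (log2 difference −2.32 ± 0.84, SE; limma adjusted p = 0.119).

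Proteins with a domain like that of the binding proteins were the list with the highest share of calls: 6 of 14 rose and 2 fell, with a median difference of 0.39. Esm1, a secreted proteoglycan, rose 48.8-fold (adjusted p = 0.0081), or 27.1-fold with 16 added. The matricellular genes Ccn5 and Ccn2 rose 5.85-fold and 5.51-fold (adjusted p = 0.0142 and 0.0187), or 3.86-fold and 3.63-fold after quantile normalization. Htra4, a serine protease, fell by 3.31 on the log2 scale, with intensities of 14.2 and 14.2 against 141 (adjusted p = 0.0107), and was 5.19-fold lower with 16 added. The other gene of this list that fell was Ccn3.

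Of 13 partners of binding proteins at the cell surface and in matrix 5 rose and 1 fell, with a median of 0.56. Tnc, tenascin C, rose by 4.25 ± 0.31 (adjusted p = 0.00914), Itgav, an integrin chain, 6.67-fold (adjusted p = 0.0129), and Lrp1, an endocytic receptor, 5.29-fold (adjusted p = 0.0164), or 3.47-fold after quantile normalization. Fn1, fibronectin, fell by 4.61 ± 0.28 (adjusted p = 0.0081), opposite in direction to Tnc. Markers of cartilage and synovial lining were read beside Fn1. Of 6, Prg4, Comp, Chad and Acan were at least 2-fold lower on both CAR arrays, while Col2a1 and Sox9 differed by −0.19 and 0.17. The summed intensity of the 6 was 124 and 162 against 1749, of which Prg4 gave 1411 on the array labelled PaS. Of 8 fibroblast markers 5 were at least 2-fold lower on both CAR arrays and 1, Pdgfra, was higher. The part of these cells in the value of Fn1 was not tested.

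Of 29 genes of receptor signalling 7 rose and none fell, with a median of 0.96. Irs1, the main docking protein of the IGF and insulin receptors, had intensities of 172 and 194 in CAR cells against 27.4 (6.65-fold; adjusted p = 0.0129); the mean of its 2 probe sets gave 3.52-fold. The docking protein Gab1 rose 11.3-fold (adjusted p = 0.0103), the adaptor Shc1 5.95-fold (adjusted p = 0.0226) and Grb14, an inhibitor of the insulin receptor, 3.99-fold (adjusted p = 0.0218). With 16 added, the folds were 5.47 for Gab1, 3.11 for Shc1 and 2.25 for Grb14. The receptor Igf1r itself differed by 0.43, as given above.

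Of 7 genes of growth hormone and parathyroid hormone input to Igf1 2 rose and none fell, with a median of 0.49. Ghr, the growth hormone receptor, had intensities of 268 and 298 in CAR cells against 26.2 (10.8-fold, or 7.08-fold with 16 added; adjusted p = 0.0107). Pth1r, the parathyroid hormone receptor of the osteoblast lineage, had 78.1 and 79.6 against 12.3 (6.44-fold, or 3.36-fold with 16 added; adjusted p = 0.0129), beside 3 of 5 osteoblast markers that were higher in CAR cells; their part in it was not tested. Of 7 regulators of Igf2 imprinting and mRNA 1 rose and none fell, with a median of −0.06. It was Plagl1, an imprinted zinc finger gene, with intensities of 220 and 197 against 13.1 (15.9-fold, or 7.71-fold with 16 added; adjusted p = 0.00914), while Igf2 itself overlapped between groups.

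**Figure D3:**
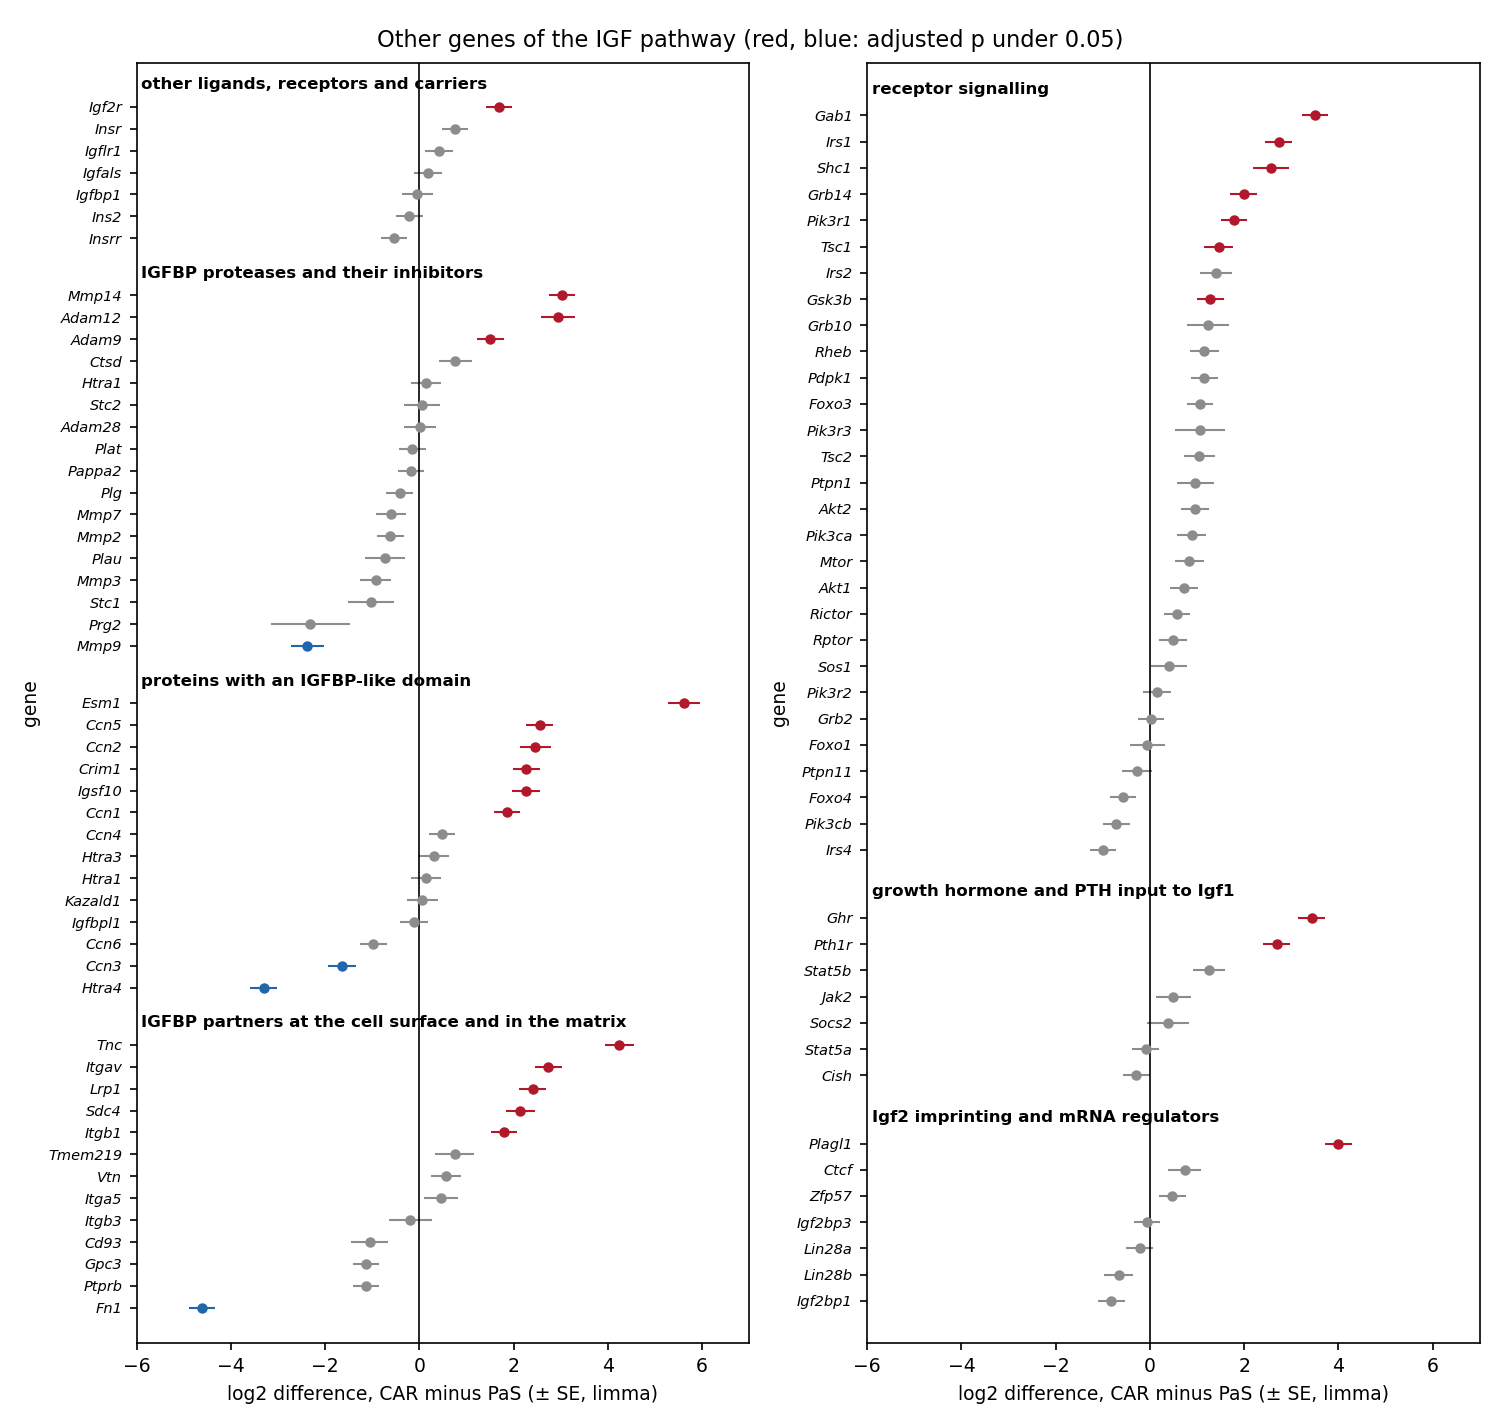
Log2 difference, CAR minus PaS, with limma's SE (horizontal axis), for the measured genes of the 7 pathway lists (vertical axis); red and blue mark genes higher and lower in CAR cells at an adjusted p under 0.05, grey the rest. Esm1, at 5.61, and Tnc, at 4.25, lie farthest to the right, and Fn1, at −4.61, farthest to the left; no signalling gene passed on the left.

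Other settings moved the family little in direction. For Igf1, Igf1r, Igfbp3, Igfbp4, Igfbp5, Igfbp7 and Pappa the sign was kept under all 12 alternatives, among them centring, quantile normalization and leaving out either CAR array, and for Igfbp6 under the 11 in which it was measured. Igf2 and Igfbp2, whose differences lie near 0, kept their sign in 8 and 10 of 12. Alternatives that change only the variance model, the averaging of probe sets or the genes kept leave a member's difference as deposited. They could not turn a sign, so these counts overstate the support.

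**Figure D4:**
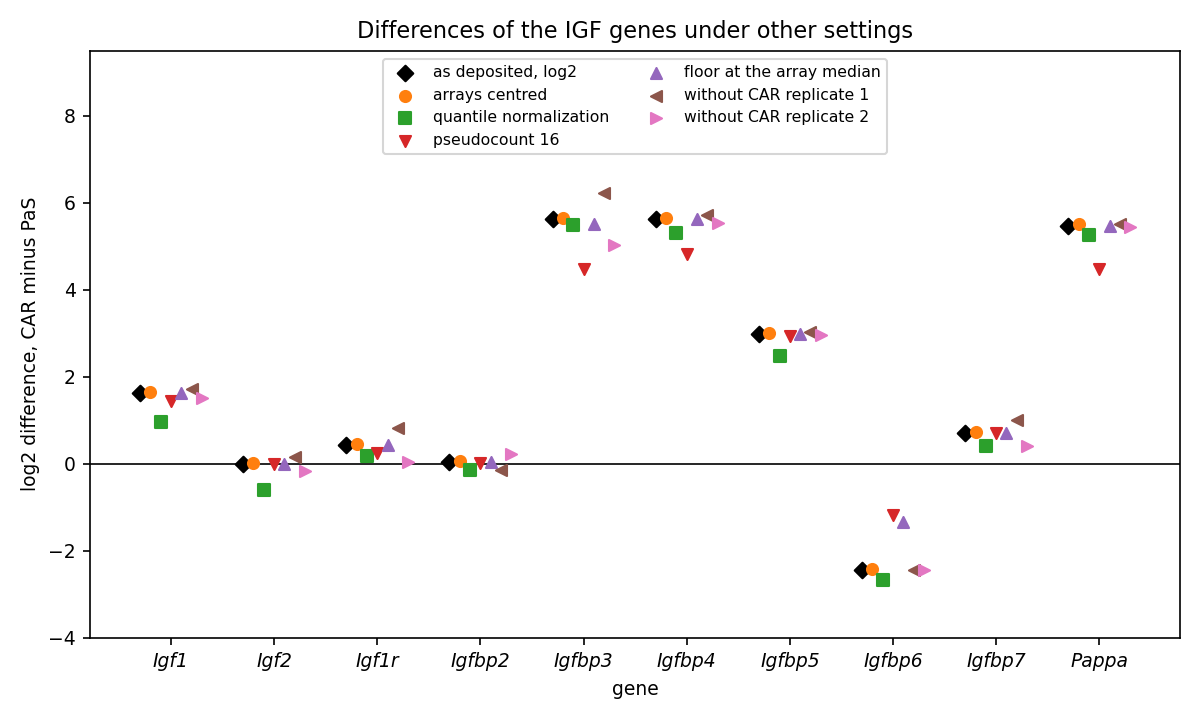
Log2 difference, CAR minus PaS (vertical axis), of the 10 IGF genes as deposited (diamonds) and under 6 other settings. Igfbp3, Igfbp4 and Pappa range from 4.48 to 6.22, Igfbp6 from −2.68 to −1.16, and the symbols of Igf2 and Igfbp2 lie on both sides of 0.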

How the data were processed

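Cells went from the sorter into lysis buffer, and total RNA from a NucleoSpin kit was amplified with the NuGEN Pico system, per the labels' protocols. The authors deposited linear signal intensity values, 1 per probe set, made per the submitters' processing notes with Affymetrix Expression Console and RMA; versions and genome build: not given in the sources used here. Log2 was taken with no pseudocount. Genes were named through the platform annotation and the current gene table: 21789 of 35556 probe sets carried 1 symbol, and 19938 genes were kept, each by its brightest probe set. The fit was limma 3.58.1 in R 4.3.3 (lmFit, eBayes), CAR against PaS, two-sided, Benjamini-Hochberg over all genes, threshold 0.05, with 1 residual degree of freedom and 4.20 prior ones. The estimates of the fit were checked on simulated arrays with known changes. These had the same spread in both groups, so that check does not bear on the calls given here. The number of arrays limits the precision, and no detection calls were used, so dim values may be background. No p is given for the 10 genes, because they were chosen with earlier results of these data known. The lists were chosen in the same way. Adjusted p values printed for list genes and for neighbours describe the fit and are no independent support. Named genes are the 10, up to 4 called genes of largest difference per pathway list, and 8 receptors and inhibitors fixed by name. Markers and nearest profiles are named as well. Igfbp1, Igfals, Ins2, Insrr, Ccn3, Prg2 and the chromosomal neighbours were added after their values were seen. So were the TATA motif and the removal of tied genes. Of the listed pathway genes, 8 were not analysed here. Protein sequences were not used here.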

Additional observations from a re-analysis of the deposited data

How the results depend on the processing

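Counts over all genes depended on the setting. The mean level that defines the brighter genes holds 2 CAR arrays and 1 PaS array, so genes lower in CAR cells pass that filter less readily. Against 2987 calls (1706 higher, 1281 lower) there were 5467 (2636 and 2831) after quantile normalization, 0 (0 and 0) with 16 added before log2, and 510 lower calls in the brighter genes, those not under the median mean level. Leaving out the 73 genes tied on the CAR arrays, an alternative chosen after seeing the data, gave 5269 (2760 and 2509), and 915 (687 and 228) with 16 added; the prior degrees of freedom moved from 4.20 to 12.3 without them. At least 2-fold higher or lower were 2178 and 1778 genes, but 1036 and 297 with 16 added (1034 and 297 without tied genes), 531 lower among brighter genes, 559 lower with the floor at the array median, and 2529 to 3233 higher and 2319 to 2809 lower with 1 CAR array left out.

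Of the IGF family 6 passed as deposited; 0 passed with 16 added (0 higher, 0 lower), and among brighter genes the count of lower members was 0 by either rule, because Igfbp6 is not among those genes. With 1 CAR array left out, 5 to 6 were at least 2-fold higher (Igfbp7 joined without CAR array 1) and 1 lower. Of the other pathway genes 29 passed as deposited, 0 with 16 added (0 higher, 0 lower); 13 fell after quantile normalization and 9 without tied genes, against 4. No named gene that passed changed direction. Leaving out a CAR array leaves 1 array against 1 and no test. The floor was used for sizes only, since it ties values. No paired analysis was possible because the groups come from different mice.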

Other observations

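The nearest protein-coding genes on the chromosome, taken in order from GRCm38.p6, did not follow the IGF genes as a rule. Of 16 measured neighbours outside the family 3 passed limma's test, or 18.8%, close to the 15.0% of all genes. Tns3, a focal adhesion protein that adjoins Igfbp3, rose by 4.62 ± 0.28 (SE; limma adjusted p = 0.0081), while Igfbp1 on the other side differed by −0.05 ± 0.33. Tnc, which adjoins Pappa, rose by 4.25, and Astn2 on the other side did not pass (0.44 ± 0.28). Top2a, a topoisomerase of dividing cells that adjoins Igfbp4, fell by 2.50 on the log2 scale (adjusted p = 0.0209), opposite to Igfbp4. Igfbp2 and Igfbp5 adjoin each other on chromosome 1 and differed by 0.05 and 2.99.

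The CAR arrays differed from each other in the same sense for most of the family. For 9 of the 10 genes CAR array 2 was the higher one, against 48.6% of all genes; Igfbp2 was the exception. The gap ran from 0.01 for Igfbp6 to 1.20 for Igfbp3, with a median of 0.27 over all genes. The interquartile range over all genes was 1.96 log2 units on CAR array 1, 2.28 on CAR array 2 and 1.35 on the array labelled PaS. On CAR array 2 the upper quartile was higher than on CAR array 1 (5.01 against 4.82) and the lower quartile was lower (2.73 against 2.86). The 48.6% covers bright and dim genes alike, while 1 of the 10 lay under the median on each CAR array.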
